A study of Homo sapiens with 9 samples.

Results

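LIN28B and 7 further genes of the let-7 microRNA axis were followed in U2OS osteosarcoma cells in which BAP1, a nuclear deubiquitinase and tumour suppressor, had been targeted by RNA interference. The members are the RNA-binding proteins LIN28B and LIN28A, the chromatin proteins HMGA2 and HMGA1, the mRNA-binding proteins IGF2BP1, IGF2BP2 and IGF2BP3, and the exonuclease DIS3L2. All probe sets annotated to 1 of these 8 symbols alone were taken, which gave 26 of the 54675 probe sets on the array and 8 of 19775 annotated genes. HMGA2 had 9 of them, IGF2BP3 and DIS3L2 4 each, IGF2BP1 3, HMGA1 and IGF2BP2 2 each, and LIN28A and LIN28B 1 each. LIN28B was chosen by its lower values with both shRNAs on these same arrays. Its values against the control are therefore a description and carry no test. The other genes were named for their place in the pathway, with earlier results of these arrays known.

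There were 9 arrays in 3 groups of 3: cells with the first BAP1 hairpin (shBAP1 #1), cells with a second BAP1 hairpin (shBAP1 #2) and cells with a non-targeting hairpin (shControl). In all 3 groups the U2OS cells had received the hairpin plasmid by lipid transfection, had been enriched in puromycin as a population and had been arrested with thymidine at the boundary of G1 and S phase. Values are log2 expression after robust multi-array averaging (RMA), so a difference of 1 is a doubling, and the median of all probe set means was 5.44. Because RMA equalises the distribution of all arrays and compresses dim signals, probe sets under this median are called dim here. BAP1 mRNA was not analysed here, so the knockdown is known from the labels alone. In bulk RNA, fewer cells with a transcript and less transcript per cell cannot be told apart.

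The let-7 microRNAs are a conserved family that represses growth and proliferation genes through a shared seed. LIN28A and LIN28B bind let-7 precursors and lower mature let-7. LIN28A recruits terminal uridylyltransferases, after which DIS3L2 degrades the tailed precursor. HMGA2, HMGA1 and the IGF2BP genes carry let-7 target sites, as LIN28B does itself, so LIN28 and let-7 oppose each other. LIN28B and the IGF2BP genes are known as oncofetal genes, low in most adult tissue and re-expressed in tumours. Mature microRNAs were not measured on these arrays.

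The family is shown by its mature strands, with the seed (bases 2 to 8 from the 5′ end) in capitals, because this heptamer is what the target genes have in common. The sequences are those of RefSeq, on GRCh38.p14. Of 2370 mature names in that table, 11 have the let-7a seed, and 9 of them are let-7 or miR-98.
let-7a: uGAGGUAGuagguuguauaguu
let-7b: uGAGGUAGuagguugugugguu
let-7c: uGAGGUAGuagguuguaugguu
let-7d: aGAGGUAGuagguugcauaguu
let-7e: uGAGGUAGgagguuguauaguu
let-7f: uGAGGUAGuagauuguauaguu
let-7g: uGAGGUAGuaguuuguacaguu
let-7i: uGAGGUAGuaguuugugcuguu
miR-98: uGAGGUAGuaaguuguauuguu

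LIN28 proteins recognise GGAG in the loop of the precursor through their zinc knuckles. Of 11 let-7 hairpins in RefSeq, 9 have GGAG between the mature arms and 2, those of let-7a-3 and let-7b, do not. The letters are a description and were not tested for binding. One hairpin with the motif in capitals is set beside one without it. The first, let-7g at chr3:52268278-52268361 on the minus strand (GRCh38.p14), lies within the gene WDR82, whose transcript is described further on. The second, let-7b, is at chr22:46113686-46113768 on the plus strand, within MIRLET7BHG.
let-7g hairpin: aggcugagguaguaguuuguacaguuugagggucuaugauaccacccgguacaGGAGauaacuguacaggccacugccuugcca
let-7b hairpin: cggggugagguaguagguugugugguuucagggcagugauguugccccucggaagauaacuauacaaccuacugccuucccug

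LIN28B was far lower with both BAP1 shRNAs. Its only probe set, 229349_at, read 8.01, 8.16 and 7.94 in shBAP1 #1, 7.86, 7.85 and 8.12 in shBAP1 #2, and 9.91, 10.16 and 9.77 in shControl. All 6 shBAP1 arrays lay below all 3 control arrays, by more than 1.5 log2 units at the nearest, while the 2 shBAP1 groups overlapped. The log2 difference from shControl was -1.91 ± 0.11 (SE, n = 3) for shBAP1 #1 and -2.00 ± 0.11 for shBAP1 #2, or 3.76-fold and 4.0-fold lower. Of the 54613 probe sets fitted, 23 had a lower log2 change with shBAP1 #1, 41 had a lower one with shBAP1 #2, and 6 were lower in both. These places follow from the choice of LIN28B by its low values and are a description. The 2 comparisons share the same control arrays. Between the hairpins LIN28B differed by -0.09 ± 0.11 (shBAP1 #2 minus shBAP1 #1), less than its spread within a group, which had an SD of 0.11, 0.15 and 0.19 in shBAP1 #1, shBAP1 #2 and shControl. LIN28B-AS1, the antisense transcript of the locus, was read by its own probe set and changed by 0.03 with shBAP1 #1 (adjusted p = 0.851) and 0.04 with shBAP1 #2 (adjusted p = 0.785).

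Other properties of the arrays moved with the LIN28B groups. Actin probe sets at the 3′ end exceeded those at the 5′ end, a measure that RNA degradation raises, by 0.39 to 0.41 in shBAP1 #1, 0.39 to 0.46 in shBAP1 #2 and 0.47 to 0.51 in shControl, whereas the same measure for GAPDH overlapped between all groups. Of 4 epithelial markers 3 (EPCAM, KRT8 and KRT18) were lower with each shRNA, and the mean level of all 4 per array was 8.03 to 8.04 in shBAP1 #1, 7.76 to 7.94 in shBAP1 #2 and 8.41 to 8.58 in shControl, with CDH1 dim. Of 7 measured mesenchymal and osteoblast markers, the lineage of this cell line, VIM, COL1A1, SPARC and RUNX2 were at or above the median and COL1A2, SP7 and ALPL were dim. Their mean level was 8.68 to 8.83 in shBAP1 #1, 8.43 to 8.55 in shBAP1 #2 and 8.30 to 8.37 in shControl, with 3 higher with shBAP1 #1 and 1 with shBAP1 #2. The part of these measures in the LIN28B difference was not tested. The haematopoietic markers PTPRC and CD3E and the pluripotency markers SOX2 and NANOG were dim. Arrays of 1 group correlated at 0.995 to 0.997 over all probe sets, and within shBAP1 #2 the mean correlation with control arrays was 0.989 for replicate 1 but 0.981 for each of the others. Without that replicate the LIN28B change with shBAP1 #2 stayed within its range of -2.09 to -1.90 over all fits that left out 1 array.

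**Figure D1:**
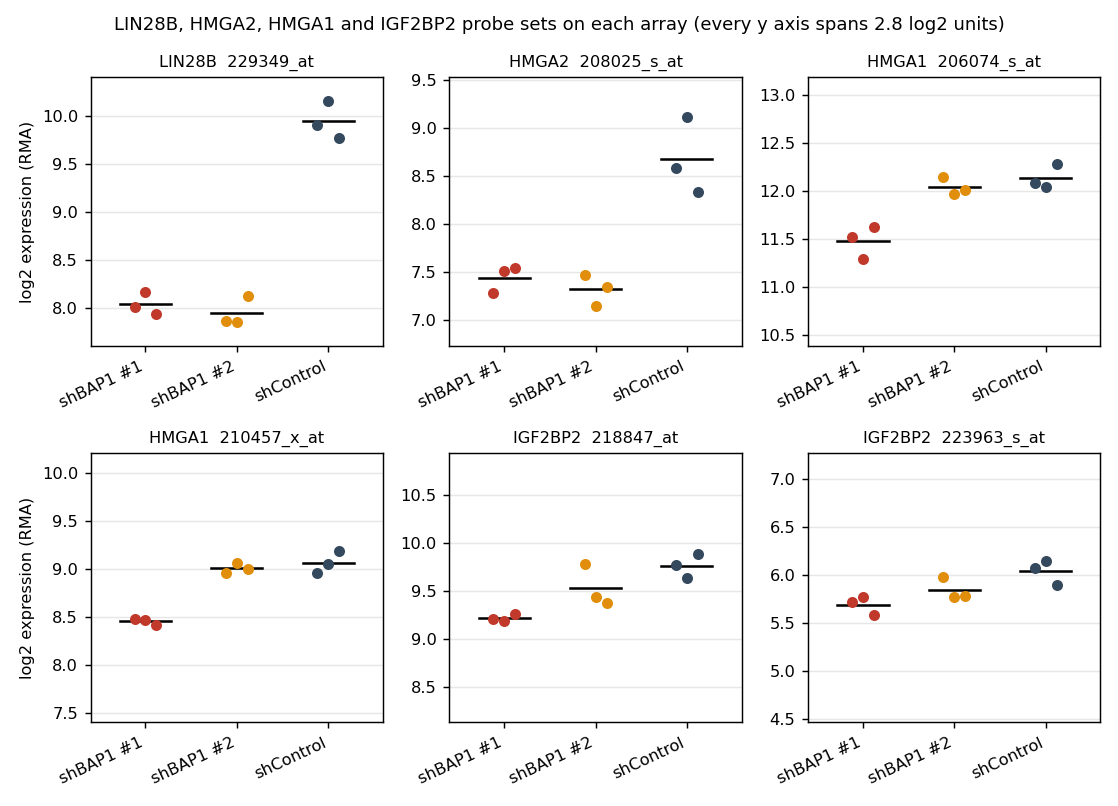
Log2 RMA expression of 6 probe sets of LIN28B, HMGA2, HMGA1 and IGF2BP2 on each array, with shBAP1 #1, shBAP1 #2 and shControl from left to right, points for arrays and bars for group means (n = 3). LIN28B and HMGA2 208025_s_at lie below all controls with both shRNAs, while both HMGA1 probe sets lie below them only with shBAP1 #1.

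One RefSeq start site of LIN28B holds a perfect E-box, the element bound by MYC, which is known to activate LIN28B. E-boxes (CACGTG, its own reverse complement) occur in 7.26% of the 35116 RefSeq promoter windows of the same length, 250 bases before to 50 after a start. LIN28B has 2 such windows. The E-box is in the one whose 250 upstream bases are at chr6:104956857-104957106 on the plus strand (GRCh38.p14), where it begins 47 bases before the start and is shown in capitals. The other LIN28B window has no CACGTG. The further motifs searched on both strands, TTTCCCGC and TTTGGCGC for E2F and GCCATNTT for YY1, occur in 1.63%, 0.652% and 6.58% of promoters and in neither LIN28B window. MYC itself changed by -0.22 with shBAP1 #1 (adjusted p = 0.156) and rose by 0.29 with shBAP1 #2 (adjusted p = 0.0457). The part of the E-box or of MYC in the LIN28B difference was not tested.
LIN28B upstream: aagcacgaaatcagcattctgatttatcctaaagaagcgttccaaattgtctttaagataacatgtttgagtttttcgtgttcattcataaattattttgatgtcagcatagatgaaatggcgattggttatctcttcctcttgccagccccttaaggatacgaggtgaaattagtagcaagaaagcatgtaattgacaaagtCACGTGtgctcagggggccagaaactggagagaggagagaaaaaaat

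LIN28A, the paralogue that acts in pluripotent cells, was dim on every array. Its probe set 219823_at read 3.68 on all 3 shBAP1 #1 arrays, 3.57, 3.89 and 3.58 in shBAP1 #2, and 3.68, 3.76 and 3.82 in shControl. The groups overlapped, and the log2 change was -0.07 ± 0.09 (SE) with each shRNA, with adjusted p = 0.696 for shBAP1 #1 and 0.646 for shBAP1 #2. A change of a transcript at this level may not be measurable on these arrays.

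Over the 25 probe sets of the 7 members other than LIN28B, shBAP1 #1 changed 9 (36%), 6 lower and 3 higher, at a limma adjusted p below 0.05 over all probe sets. Of all probe sets 17.7% passed, 8.76% lower and 8.98% higher. With shBAP1 #2 only 1 of 25 passed (4%, lower), against 24.1% of all probe sets and 11.5% lower. That 1, HMGA2 208025_s_at, was also the only one changed the same way by both shRNAs, against 7.52% of all probe sets and 3.49% lower with both. Without shBAP1 #2 replicate 1, 3 passed with shBAP1 #2 and 2 the same way with both, and the counts were 2 and 2 without shBAP1 #2 replicate 3 or shControl replicate 1. Between the hairpins 8 of 25 differed (32%), near the 25.5% of all probe sets. Probe sets annotated to the same gene cannot be taken as independent of each other. The median log2 change of the 25 was -0.05 with shBAP1 #1 and -0.06 with shBAP1 #2, against 0.01 and 0.02 over all probe sets.

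**Figure D2:**
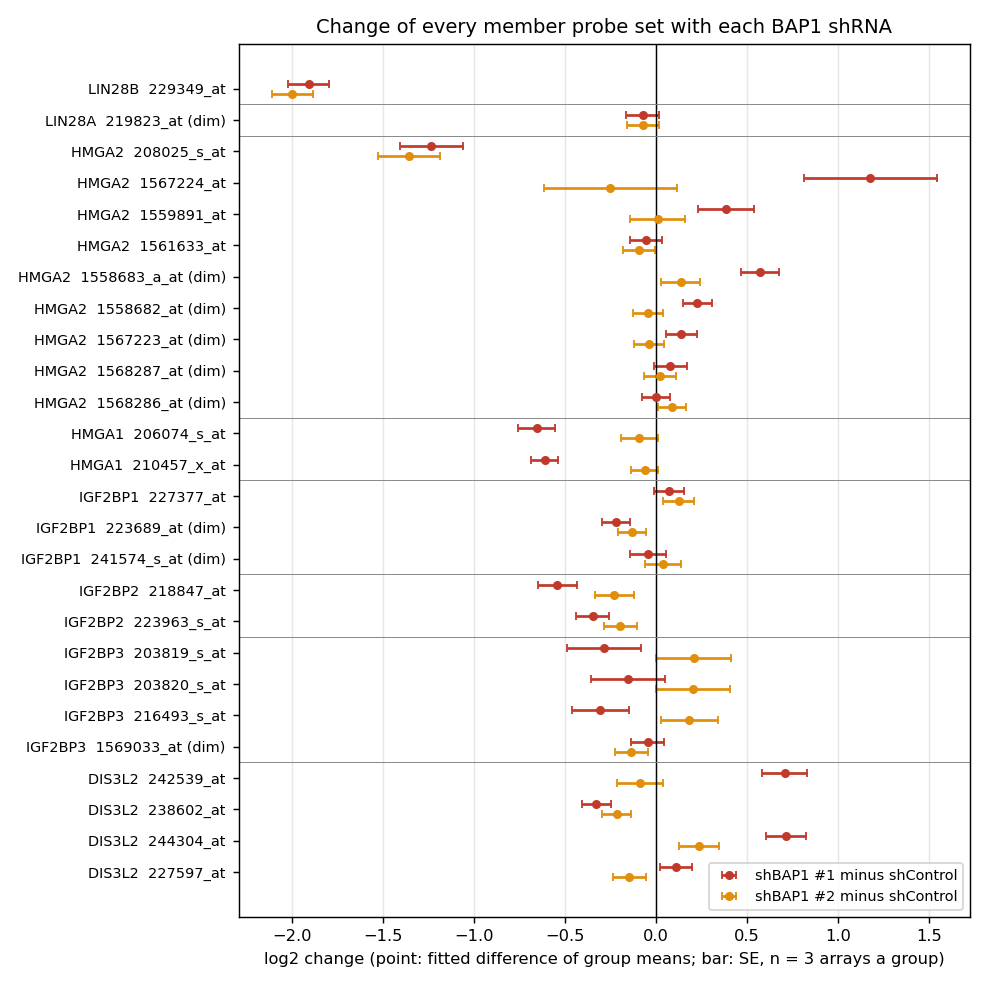
Fitted log2 change against shControl of all 26 probe sets, with shBAP1 #1 above shBAP1 #2 in each row, points for the difference of group means and bars for the SE (n = 3 arrays a group); dim marks probe sets with a mean under 5.44. LIN28B and HMGA2 208025_s_at are the only rows in which both changes lie beyond -1.

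HMGA2, an architectural DNA-binding protein and the classical let-7 target, fell with both shRNAs by its brightest probe set. 208025_s_at read 7.28, 7.51 and 7.54 in shBAP1 #1, 7.47, 7.15 and 7.35 in shBAP1 #2, and 8.58, 9.12 and 8.34 in shControl. Every shBAP1 array lay below every control, and the shBAP1 groups overlapped each other. The log2 change was -1.24 ± 0.17 (SE, n = 3) with shBAP1 #1, adjusted p = 0.000579, and -1.36 ± 0.17 with shBAP1 #2, adjusted p = 0.000245. Across the 9 arrays its pattern correlated with that of LIN28B at r = 0.965, the highest value among the members' other probe sets, a likeness that the shared difference between control and shBAP1 arrays sets.

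The other 8 HMGA2 probe sets did not follow it. In limma none of them passed the threshold with shBAP1 #2, or an unadjusted p of 0.05 (0 of 8), where their log2 changes ran from -0.25 to 0.14. With shBAP1 #1, 1 of the 8 passed the threshold and 4 had an unadjusted p below 0.05, all of them higher. The dim 1558683_a_at rose with shBAP1 #1, reading 4.99, 4.78 and 5.01 in shBAP1 #1, 4.59, 4.46 and 4.42 in shBAP1 #2, and 4.13, 4.44 and 4.49 in shControl. Its change of 0.57 ± 0.11 with shBAP1 #1 had an adjusted p = 0.00331, and shBAP1 #2 differed from shBAP1 #1 by -0.44 (adjusted p = 0.0105). Thus 1 HMGA2 probe set was higher with the same hairpin with which another was lower.

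1567224_at, the second brightest for HMGA2, was the most variable member. It read 7.71, 7.36 and 6.36 in shBAP1 #1, 6.26, 5.92 and 4.95 in shBAP1 #2, and 6.09, 6.13 and 5.67 in shControl. All shBAP1 #1 arrays lay above all controls and above all shBAP1 #2 arrays, and replicate 3 was the lowest array of each group. Its log2 change of 1.18 ± 0.37 with shBAP1 #1 missed the threshold at adjusted p = 0.0501 and passed it in 8 of 15 alternative fits (adjusted p 0.00108 to 0.185). The lowest p came with the replicate number as a block. With that block among the shBAP1 #1 and shControl arrays alone, added after seeing the data, the adjusted p was 0.00317 (2 residual degrees of freedom). Whether the replicate numbers mark a pairing is not known. The log2 change was 1.57 without shBAP1 #1 replicate 3. The hairpins differed by -1.43 ± 0.37 (adjusted p = 0.0144), a call lost at -1.15, -1.32 and -1.05 without shBAP1 #1 replicate 1, shBAP1 #1 replicate 2 or shBAP1 #2 replicate 3.

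The remaining HMGA2 probe sets gave small values. 1558682_at changed by 0.23 with shBAP1 #1 (adjusted p = 0.0888), with every shBAP1 #1 array above all other arrays. It differed between the hairpins by -0.27 (adjusted p = 0.0310) but lost that call in 6 of 13 alternatives. 1559891_at changed by 0.38 with shBAP1 #1 (adjusted p = 0.127, or 0.0467 with the block over all groups and 0.0514 with it over shBAP1 #1 and shControl alone) and 0.01 with shBAP1 #2 (adjusted p = 0.981). 1561633_at, 1567223_at, 1568286_at and 1568287_at passed in none of the comparisons and the last 3 of them were dim. With the mean of all HMGA2 probe sets in place of the brightest, the gene changed by 0.14 with shBAP1 #1 (adjusted p = 0.292) and -0.17 with shBAP1 #2 (adjusted p = 0.169), so the fall of HMGA2 is a statement about 208025_s_at. What part of the gene each probe set reads is not given in the sources used here.

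**Figure D3:**
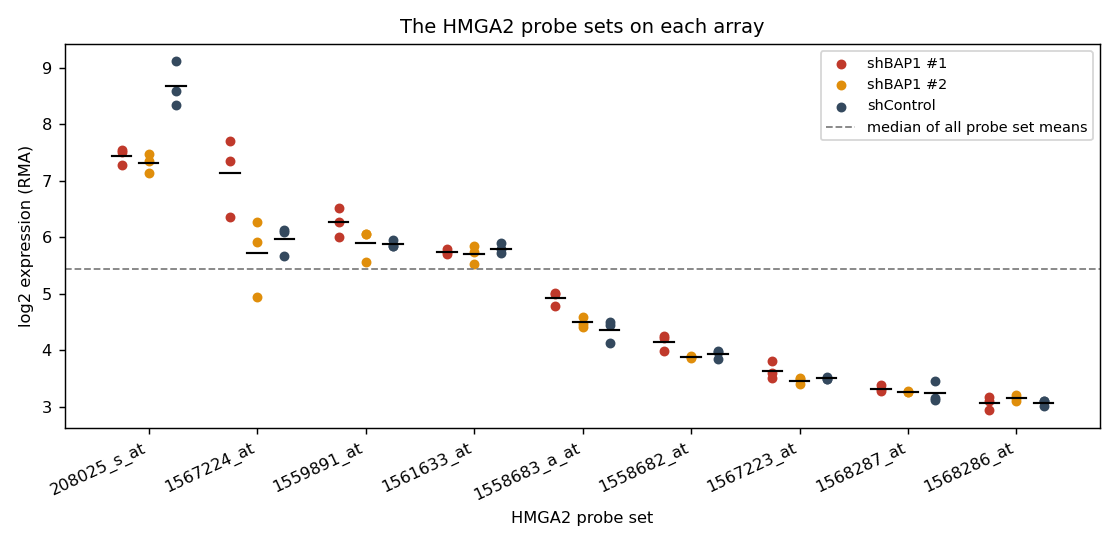
Log2 RMA expression of the 9 HMGA2 probe sets on each array, with shBAP1 #1, shBAP1 #2 and shControl from left to right within each probe set, points for arrays, short bars for group means and a dashed line at the median of all probe set means (5.44). Only 208025_s_at has every control array above every shBAP1 array, while 1567224_at, 1558683_a_at and 1558682_at have every shBAP1 #1 array above all others.

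HMGA1, the paralogue of HMGA2, fell with shBAP1 #1 and not detectably with shBAP1 #2. 206074_s_at read 11.53, 11.29 and 11.62 in shBAP1 #1, 12.15, 11.97 and 12.01 in shBAP1 #2, and 12.09, 12.04 and 12.28 in shControl. All shBAP1 #1 arrays lay below all others, while shBAP1 #2 and shControl overlapped. The log2 change was -0.66 ± 0.10 (SE) with shBAP1 #1 (adjusted p = 0.00103) and -0.09 ± 0.10 with shBAP1 #2 (adjusted p = 0.601), and the difference of 0.57 between hairpins passed the test (adjusted p = 0.00168).

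The second HMGA1 probe set gave nearly the same sizes. 210457_x_at, whose suffix marks probes shared with unrelated transcripts, read 8.48, 8.47 and 8.42 in shBAP1 #1, 8.96, 9.06 and 9.0 in shBAP1 #2, and 8.96, 9.06 and 9.19 in shControl. It fell by 0.61 on the log2 scale with shBAP1 #1 (adjusted p = 0.000237), changed by -0.06 with shBAP1 #2 (adjusted p = 0.642) and differed by 0.55 between the hairpins (adjusted p = 0.000277). Among the members with more than 1 probe set, HMGA1 and IGF2BP2 were the genes in which every probe set passed with shBAP1 #1 in 1 direction.

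IGF2BP2, an mRNA-binding protein that HMGA2 is known to activate, was lower with shBAP1 #1. 218847_at read 9.21, 9.19 and 9.27 in shBAP1 #1, 9.78, 9.43 and 9.38 in shBAP1 #2, and 9.77, 9.64 and 9.88 in shControl. The shBAP1 #1 arrays lay below all others, and in shBAP1 #2 replicate 1 read as high as the controls whereas replicates 2 and 3 lay below them. The change was -0.54 ± 0.11 with shBAP1 #1 (adjusted p = 0.00491) and -0.23 ± 0.11 with shBAP1 #2 (adjusted p = 0.165). Without shBAP1 #2 replicate 1 the shBAP1 #2 change was -0.36 and passed (adjusted p = 0.0115, within a range of 0.0115 to 0.434 over all alternatives).

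The dimmer IGF2BP2 probe set moved the same way. 223963_s_at read 5.72, 5.77 and 5.59 in shBAP1 #1, 5.98, 5.77 and 5.78 in shBAP1 #2, and 6.08, 6.15 and 5.90 in shControl. It fell with shBAP1 #1 by 0.35 on the log2 scale (adjusted p = 0.0227) and changed by -0.20 with shBAP1 #2 (adjusted p = 0.164). The shBAP1 #1 call was lost without shBAP1 #1 replicate 1 or 3 or shControl replicate 1 or 2, at changes of -0.36 to -0.29. Neither probe set passed between the hairpins, at 0.31 (adjusted p = 0.0573) and 0.15 (adjusted p = 0.291), though 218847_at did so in 5 of 16 alternatives (adjusted p 0.0387 to 0.148 over all of them).

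IGF2BP1, which stabilises MYC and other mRNAs, passed in none of the 3 comparisons in limma with any of its 3 probe sets, of which 1 had an unadjusted p below 0.05, with shBAP1 #1. Its values ran from 4.03 to 5.80 over all arrays and 2 of the 3 probe sets were dim. The nearest was the dim 223689_at, which read 4.97, 5.20 and 5.13 in shBAP1 #1, 5.20, 5.20 and 5.18 in shBAP1 #2, and 5.42, 5.26 and 5.28 in shControl, with every shBAP1 array below every control. Its changes were -0.22 (adjusted p = 0.0771) and -0.13 (adjusted p = 0.274).

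IGF2BP3, the family member most often used as a tumour marker, passed against shControl with none of its 4 probe sets (lowest adjusted p = 0.255 with shBAP1 #1 and 0.346 with shBAP1 #2 in limma, and 0 of 4 at an unadjusted p below 0.05 with either). 203819_s_at, the brightest, read 7.02, 7.35 and 7.25 in shBAP1 #1, 7.24, 7.89 and 7.97 in shBAP1 #2, and 7.25, 7.35 and 7.88 in shControl. All 3 groups overlapped. 216493_s_at differed between the hairpins by 0.49 ± 0.16 (adjusted p = 0.0432), though the arrays of the hairpins overlapped. The call was lost with 6 of the 9 arrays left out singly, namely shBAP1 #1 replicate 1 or 3, shBAP1 #2 replicate 2 or 3, or shControl replicate 1 or 2, at 0.33 to 0.50. Without shBAP1 #2 replicate 1, 203819_s_at and 203820_s_at differed between the hairpins by 0.72 (adjusted p = 0.0121) and 0.63 (adjusted p = 0.00771), and 203820_s_at passed against shControl at 0.47 (adjusted p = 0.0326). Over all alternatives the adjusted p reached 0.334, 0.630 and 0.948 for these 3 values.

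DIS3L2, the nuclease that degrades uridylated pre-let-7, gave probe sets that moved in opposite directions with shBAP1 #1. 242539_at read 8.08, 7.69 and 7.67 in shBAP1 #1, 7.02, 6.87 and 7.16 in shBAP1 #2, and 7.19, 7.19 and 6.93 in shControl. 244304_at read 7.06, 6.89 and 6.75 in shBAP1 #1, 6.39, 6.40 and 6.48 in shBAP1 #2, and 6.42, 6.13 and 6.01 in shControl. In both, shBAP1 #1 lay above all other arrays. They rose with shBAP1 #1 by 0.71 ± 0.12 (adjusted p = 0.00244) and 0.72 ± 0.11 (adjusted p = 0.00108). With shBAP1 #2 they changed by -0.09 (adjusted p = 0.697) and 0.24 (adjusted p = 0.164), and 244304_at passed without shControl replicate 1 (0.35, adjusted p = 0.0347, the lowest of a range up to 0.428). Between the hairpins shBAP1 #2 was lower than shBAP1 #1 by 0.80 and 0.48 on the log2 scale (differences of -0.80 and -0.48, adjusted p = 0.000733 and 0.00799).

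Another DIS3L2 probe set went the other way. 238602_at read 6.67, 6.67 and 6.83 in shBAP1 #1, 6.78, 6.78 and 6.95 in shBAP1 #2, and 7.13, 7.05 and 6.98 in shControl, so that every shBAP1 array lay below every control. The change was -0.33 ± 0.08 with shBAP1 #1 (adjusted p = 0.0147) and -0.22 ± 0.08 with shBAP1 #2 (adjusted p = 0.0787). The shBAP1 #1 call was lost without shBAP1 #1 replicate 1 or 2 or shControl replicate 1 (-0.31 to -0.29), and the shBAP1 #2 change passed without shBAP1 #2 replicate 3 (-0.27, adjusted p = 0.0492, the lowest of a range up to 0.239). 227597_at changed by 0.11 (adjusted p = 0.524) and -0.15 (adjusted p = 0.305). Its shBAP1 #2 arrays all lay below its shBAP1 #1 arrays, at a difference of -0.26 (adjusted p = 0.0618) that passed in 3 of 14 alternatives (0.0140 to 0.187). The direction of DIS3L2 with shBAP1 #1 thus depends on the probe set.

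The machinery that makes and tails let-7 was examined in a list of 20 genes, of which 19 were measured by the brightest probe set of each. shBAP1 #1 changed 6 of them, 2 higher and 4 lower, and shBAP1 #2 changed 11, 4 higher and 7 lower, where 23.4% of all 19775 genes passed with shBAP1 #1 (11.9% higher, 11.5% lower) and 31.2% with shBAP1 #2 (15.8% higher, 15.5% lower). With both shRNAs 1 rose and 2 fell, against 10.4% of all genes changed the same way (5.56% higher, 4.85% lower). All measured genes of the list but TRIM71 were at or above the median level, and shares among genes of like level were not computed. TARBP2, a double-stranded RNA-binding partner of Dicer, fell by 0.26 and 0.68 on the log2 scale (adjusted p = 0.0124 and 3.9e-05), reading 8.85 to 8.92 in shBAP1 #1, 8.43 to 8.48 in shBAP1 #2 and 9.08 to 9.17 in shControl. PRKRA, another partner of Dicer, rose by 0.34 and 0.40 (adjusted p = 0.00741 and 0.00226). SYNCRIP, an RNA-binding protein of the hnRNP family, fell by 0.53 and 0.37 (adjusted p = 0.000738 and 0.00505). In each of these 3 genes every shBAP1 array lay beyond every control. TARBP2 and PRKRA have 2 probe sets each and SYNCRIP has 7, and the dimmer ones were not read singly. With the mean of the probe sets of each gene, only 1 gene of the list changed the same way with both shRNAs.

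Core enzymes of the pathway differed between the hairpins. DICER1, which cuts the precursor to the mature duplex, changed by -1.09 with shBAP1 #1 (adjusted p = 4.1e-05) and 0.11 with shBAP1 #2 (adjusted p = 0.493), a difference of 1.2 that passed (adjusted p = 1.1e-05). DROSHA, which cuts the primary transcript, changed by 0.23 with shBAP1 #1 (adjusted p = 0.459) and -0.98 with shBAP1 #2 (adjusted p = 0.00157), differing by -1.21 (adjusted p = 0.000346). The terminal uridylyltransferases that tail pre-let-7 moved little: TUT4 changed by 0.05 and -0.23 (adjusted p = 0.738 and 0.0469) and TUT7 by 0.19 and 0.21 (adjusted p = 0.148 and 0.0893). These 4 were picked for their role in the pathway after their values were seen. DICER1 has 6 probe sets, TUT7 5, TUT4 2 and DROSHA 1, and the values are those of the brightest alone. DGCR8 was not analysed here.

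A list of 7 transcripts held 6 hosts of let-7 hairpins and LIN28B-AS1 of the LIN28B locus. Of these 6 were measured and 1 (16.7%) changed the same way with both shRNAs, against 10.4% of all genes. WDR82, which encodes a subunit of histone H3 lysine 4 methyltransferase complexes and whose gene spans the let-7g hairpin shown above, read 11.12, 11.15 and 11.18 in shBAP1 #1, 11.14, 11.33 and 11.28 in shBAP1 #2, and 10.62, 10.77 and 10.70 in shControl. All shBAP1 arrays lay above all controls, and the change was 0.45 (adjusted p = 0.00144) and 0.56 (adjusted p = 0.000300). MIR100HG, the dim host of let-7a-2, rose by 1.10 with shBAP1 #1 (adjusted p = 0.0231) and changed by -0.19 with shBAP1 #2 (adjusted p = 0.723). MIRLET7BHG, which spans let-7a-3 and let-7b, and HUWE1, which spans let-7f-2 and miR-98, passed with neither shRNA. Levels of host mRNAs say nothing here of the mature microRNAs, which were not measured.

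Genes on a list of 40 let-7 targets, 35 of them measured, went both ways. With shBAP1 #1, 10 were higher and 7 lower (48.6% in all, against 23.4% of all genes), and with shBAP1 #2, 12 were higher and 5 lower (48.6%, against 31.2%). The median log2 change was 0.06 and 0.11, against 0.01 and 0.02 over all genes. With both shRNAs 5 rose and 2 fell, and 3 (CCNJ, TGFBR1 and PLAGL1) passed in opposite directions, lower with shBAP1 #1 and higher with shBAP1 #2. The shares were 20% the same way, against 10.4% of all genes, and 8.57% in opposite directions, against 2.95%. All measured targets but TRIM71 and IRS2 were at or above the median level, whereas of all 19775 genes 12741 were, with members left out. Shares among genes of like level were not computed. The members HMGA2, HMGA1 and IGF2BP1 to IGF2BP3 are not on this list, and the list was written with earlier results of these arrays known.

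ARID3A, a factor that binds AT-rich DNA, had the highest mean of both changes on this list. It read 7.14, 6.92 and 7.0 in shBAP1 #1, 7.18, 7.79 and 7.62 in shBAP1 #2, and 5.90, 5.52 and 5.92 in shControl, a change of 1.24 ± 0.16 (adjusted p = 0.000295) and 1.75 ± 0.16 (adjusted p = 3.5e-05). CCND2, the cyclin D2 gene, read 12.26, 12.33 and 12.18 in shBAP1 #1, 12.11, 12.38 and 12.35 in shBAP1 #2, and 11.11, 11.06 and 11.03 in shControl. Its change was 1.19 (adjusted p = 1.7e-05) and 1.22 (adjusted p = 1.0e-05), so this gene rose about as much with either hairpin.

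CDC25A, the phosphatase that activates cyclin-dependent kinases at the entry to S phase, fell. It read 8.78, 8.44 and 9.02 in shBAP1 #1, 8.89, 8.68 and 8.63 in shBAP1 #2, and 9.73, 9.63 and 9.66 in shControl, a change of -0.93 and -0.94 (adjusted p = 0.000611 and 0.000424). The other targets changed the same way by both were HIC2, PLAGL2 and STARD13, which rose, and INSR, the insulin receptor gene, which fell by 0.54 and 0.63 on the log2 scale. In CCND2, ARID3A and CDC25A every shBAP1 array lay beyond every control.

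**Figure D4:**
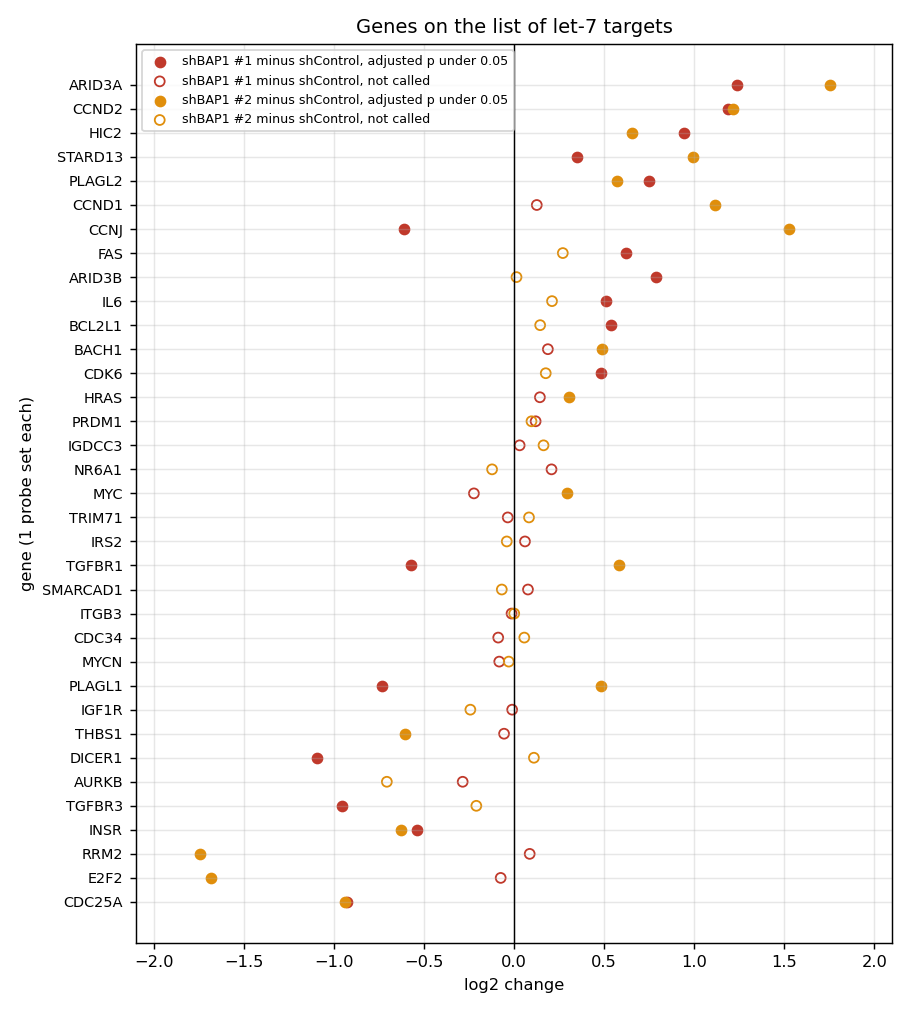
Log2 change against shControl of the 35 measured genes on the list of let-7 targets, 1 probe set each, ordered by the mean of both changes, with red for shBAP1 #1 and orange for shBAP1 #2 and filled points for an adjusted p below 0.05. Genes lie on both sides of 0 and run, by that mean, from CDC25A at -0.93 and -0.94 to ARID3A at 1.24 and 1.75. Larger falls with 1 shRNA alone include RRM2 (0.09 and -1.74), E2F2 (-0.07 and -1.68) and DICER1 (-1.09 and 0.11).

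Downstream genes of the IGF2BP, LIN28 and HMGA proteins were read against the same background, 10.4% of all genes changed the same way by both hairpins. Of 9 measured mRNAs known to be bound by IGF2BP or LIN28 proteins, none did so in limma, and 0 at an unadjusted p below 0.05 in both, with 1 passing with shBAP1 #1 (higher) and 7 with shBAP1 #2 (4 higher, 3 lower). These are 11.1% with shBAP1 #1, against 23.4% of all genes, and 77.8% with shBAP1 #2, against 31.2%. All of these mRNAs but MAPK4 were at or above the median level, and shares among genes of like level were not computed. CD44, the hyaluronan receptor gene, changed by 0.10 (adjusted p = 0.474) and 0.76 (adjusted p = 5.0e-05), and CCND1, the cyclin D1 gene, by 0.13 (adjusted p = 0.466) and 1.11 (adjusted p = 2.6e-05). For both the difference between hairpins passed (adjusted p = 7.3e-05 and 3.0e-05). IGF2 and H19 were not analysed here.

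Of 9 measured genes linked to HMGA proteins, CDKN1A alone (11.1%, near the 10.4% of all genes) changed the same way with both, rising by 0.83 and 0.75 (adjusted p = 2.9e-05 and 3.5e-05). This gene, which encodes the p21 inhibitor of cyclin-dependent kinases, read 11.73 to 11.79 in shBAP1 #1, 11.60 to 11.75 in shBAP1 #2 and 10.91 to 10.97 in shControl. Of 6 measured partners of LIN28A in pluripotent cells, none changed with both in limma, and 0 at an unadjusted p below 0.05 in both. SOX2, NANOG, KLF4 and DPPA4 among them were dim, where a change may not be measurable. The 1 that passed was SALL4, a zinc finger factor, at 0.73 with shBAP1 #2 (adjusted p = 0.00127), against -0.01 with shBAP1 #1 (adjusted p = 0.977). KLF4, another such factor with a mean of 4.17, changed by 0.25 and 0.29 (adjusted p = 0.265 and 0.164).

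Among 12741 genes at or above the median level, the pattern over the 9 arrays most like that of LIN28B belonged to HSPB3, a small heat shock protein gene (r = 0.994), LAPTM5, a lysosomal membrane protein gene (0.990), SEC24A, of the coat of endoplasmic reticulum vesicles (0.989), the kinase gene MAP3K1 (0.988), SUCO (0.983) and the repressor gene ZBTB18 (0.981). The most opposite were NAA60, an acetyltransferase gene (-0.996), GTF3C2, of RNA polymerase III transcription (-0.994), the mitochondrial import gene TIMM17B (-0.994) and DET1 (-0.994). HSPB3 was dim in both shBAP1 groups, with means of 4.81 in shBAP1 #1, 4.80 in shBAP1 #2 and 6.84 in shControl, so it entered the ranking only through its control level. The log2 changes with shBAP1 #1 and shBAP1 #2 were -2.03 and -2.04 for HSPB3, -1.62 and -1.51 for LAPTM5, and 0.54 and 0.54 for NAA60. The correlations mostly restate the distance between 3 control and 6 shBAP1 arrays, and so are given with no test.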

How the data were processed

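Expression was measured on 9 arrays, 3 per group, with group and replicate taken from the sample titles. The values are log2 expression per probe set after RMA, deposited by the authors; RMA is named per the submitters' processing notes, with its version not given in the sources used here. The table has 54675 probe sets, and 62 array controls were left out of the fit. Of the probe sets, 41097 had 1 gene symbol in the platform annotation, 1801 several and 11777 were not listed. Symbols were checked by gene identifier against RefSeq for GRCh38.p14 (41043 matched, 0 updated).

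limma 3.58.1 in R 4.3.3 (lmFit, eBayes, two-sided) was fitted to all 54613 remaining probe sets with a mean per group and no covariates (6 residual degrees of freedom, prior 4.37). Adjusted p-values are Benjamini-Hochberg over all probe sets, with a threshold of 0.05 and no fold minimum. For gene lists, each of 19775 genes was read by its brightest probe set on average, and members were read by every probe set. From each list up to 3 genes that both shRNAs changed the same way were named, those of greatest average change. Where there was none, the 2 genes with the lowest p for the average change were named. Other list genes are named for their role or to complete a count, after their values were seen. Genes like LIN28B were the 6 highest and 4 lowest Pearson correlations. Members and lists were chosen with earlier results of these data known. Nothing in the labels states that the replicates came from separate cultures. The p-values thus reflect spread among these arrays only, possibly technical, and the number of arrays limits the precision. On simulated data, 59% of 61 probe sets given a log2 change of 0.5 and 91.2% of 68 given 1 were recovered for shBAP1 #1 against shControl. For shBAP1 #2 these shares were 54.1% and 91.2%. The simulation changed few probe sets, equally with both hairpins, on independent normal noise. In the data 17.7% and 24.1% of all probe sets passed, which loosens the adjusted threshold. The simulated shares thus do not give the power of the tests reported here. Arrays of the same replicate number deviated together from their group means in all 3 pairs of shBAP1 #1 and shControl (r = 0.127 to 0.302). Of shBAP1 #2 with shControl 1 of 3 such pairs had r over 0.1, and of shBAP1 #2 with shBAP1 #1 0 of 3. Unlike numbers reached 0.148 (shControl replicate 2, shBAP1 #1 replicate 1) and 0.191 (shBAP1 #1 replicate 2, shBAP1 #2 replicate 3). The closest array of another group had the same number for 5 of 9 arrays. Whether the numbers pair any samples is thus not settled, and the labels do not state it. Alternatives were 1 probe set per gene, the mean of probe sets, cyclic loess, dim probe sets left out, only the groups compared, an intensity trend, a replicate block, and leaving out each array. A block among shBAP1 #1 and shControl alone was added after seeing the data. Figures were drawn with matplotlib 3.10.9.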

Additional observations from a re-analysis of the deposited data

Results flagged for a closer look

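For 8 of 25 member probe sets (32%, against 25.5% of all probe sets) the effects of the 2 hairpins differed from each other in limma (shBAP1 #2 minus shBAP1 #1, adjusted p below 0.05). For HMGA1 the differences were 0.57 and 0.55, higher in shBAP1 #2 than in shBAP1 #1 by both probe sets. For HMGA2 they were -1.43 (1567224_at), -0.44 (1558683_a_at) and -0.27 (1558682_at), the last 2 of them dim. For DIS3L2 they were -0.80 (242539_at) and -0.48 (244304_at), and for IGF2BP3 0.49 (216493_s_at). HMGA2 208025_s_at is not among them, at -0.12 (adjusted p = 0.687).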

How the results depend on the processing

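The LIN28B changes kept their direction and stayed within 1 SD of replicates under all alternatives (17 for shBAP1 #1, 16 for shBAP1 #2), from -2.00 to -1.81 with shBAP1 #1 and -2.09 to -1.90 with shBAP1 #2 when 1 array was left out. The number of member probe sets changed with shBAP1 #1 (9) ran from 7 to 11 when 1 array was left out, that with shBAP1 #2 (1) from 1 to 3, that between hairpins (8) from 6 to 9 and that changed the same way by both (1) from 1 to 2. Counted by gene, with fewer features by construction, these were 4, 1, 3 and 1 of 7 with 1 probe set per gene, and 3, 0, 4 and 0 with the mean of the probe sets. With that mean, the list counts for both shRNAs were 1 for let-7 processing (3), 1 for IGF2BP and LIN28 client mRNAs (0) and 2 for HMGA downstream (1); an intensity trend also gave 1 for the client mRNAs. The cause was not tested. Let-7 targets ran from 6 to 8 and let-7 processing from 2 to 4 when 1 array was left out.

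Single probe sets turned their sign only as follows, and besides HMGA2 with shBAP1 #1 none of these had passed the threshold as reported. With the mean of probe sets HMGA2 changed by 0.14 and IGF2BP1 by -0.07 with shBAP1 #1. With cyclic loess HMGA2 1559891_at changed by -0.01 with shBAP1 #2 and LIN28A by -0.01 between hairpins. Leaving out 1 array moved HMGA2 1559891_at (-0.08 to 0.18), 1567224_at (-0.53 to 0.13) and 1568287_at (-0.04 to 0.13) and IGF2BP1 241574_s_at (-0.05 to 0.15) with shBAP1 #2, HMGA2 1568286_at (-0.05 to 0.06), IGF2BP3 1569033_at (-0.11 to 0.04), IGF2BP1 227377_at (-0.02 to 0.12) and 241574_s_at (-0.13 to 0.07) with shBAP1 #1, and LIN28A (-0.10 to 0.06) and HMGA2 1561633_at (-0.11 to 0.05) between hairpins. With the replicate block 11 member probe sets passed with shBAP1 #1, 1 with shBAP1 #2 and 11 between hairpins. HMGA2 1567224_at and 1559891_at then passed with shBAP1 #1. Between hairpins HMGA2 1559891_at, IGF2BP3 203819_s_at and DIS3L2 227597_at then passed (adjusted p = 0.0381, 0.0211 and 0.0365), where no same-number pair had r over 0.1. With the block among shBAP1 #1 and shControl alone, added after seeing the data, 10 passed, and no call but that of 1567224_at differed from those reported. Changes of dim probe sets are limited by background.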
